A study of Sus scrofa with 24 samples.

Results

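The vein downstream of the venous anastomosis of an arteriovenous haemodialysis graft was compared with the external jugular vein in pigs, both taken 5 days after graft placement. The 4 downstream veins and the 4 jugular controls of day 5, paired by replicate number, make up 8 of the 24 samples of the series, and were chosen by their labels alone. The downstream vein is the venous wall just beyond the junction of graft and vein, and the external jugular vein served as the control. The series also holds the anastomosis itself and day 14 for all 3 sites, with 4 samples in each of its 6 groups. The pigs' age, sex and strain were not given in the labels. The design text speaks of 4 independent experiments on different biological replicates, but does not say that the 3 sites of an experiment were taken from 1 animal, so p-values measure the spread between these samples.

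Total RNA was hybridised to 2-colour oligonucleotide arrays for the pig. All downstream samples were labelled with Cy5 and all jugular controls with Cy3 on other arrays, so site and dye cannot be told apart in a single difference. Between 65.3% and 80.0% of probes were well above background in the downstream samples, against 58.4% to 76.9% in the controls. Replicates 1 and 2 were scanned with an earlier extraction protocol than replicates 3 and 4, and the first principal component of the 8 samples (42.0% of the variance) separated these replicate pairs. The day 5 samples of each replicate number were scanned together, so that each pair difference lies within 1 scan, and replicate 4 of day 14 shared the scan of replicate 4. Levels are normalised log2 intensities, in which a step of 1 is a 2-fold difference, and n is 4 per group throughout.

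One disagreement within the deposit bears on every result. The difference between the sites computed from the authors' deposited value table correlated with that from the scanner files at 0.99, 1.00 and 1.00 in replicates 1 to 3 but at 0.64 in replicate 4. The replicate 4 columns of that table therefore do not hold the same measurement as the replicate 4 scanner files, and which of them carries the right labels cannot be told from the labels. Over the whole series, 18 of 24 columns of the table correlated best with the scanner signal of their own sample. The columns that did not are not listed here. The scanner files were used, and without replicate 4 the fit called 2 features, against 2742 with it. The count also rested on the other replicates, with 4437, 373 and 6 calls without replicate 1, 2 and 3, and 328 without the pairing. The estimates of the called named genes moved little: all 97 kept their sign without replicate 4, and the difference moved by 0.10 in the median and by 0.58 at most. That fit shares replicates 1 to 3 with the fit that called these genes, so a kept sign is no separate check. The genes were also picked by a fit that held replicate 4, which favours small moves. Some named genes that did not pass turned sign, such as ADIPOQ (-1.29, but 0.56 without replicate 4) and CCL2 (-0.34, but 0.27).

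A vein placed under arterial pressure and flow is known to remodel: its smooth muscle cells can leave the contractile state and divide, macrophages enter the wall, and matrix is cut and laid down anew. The contractile state depends on smooth muscle actin, the smooth muscle myosin heavy chain and their regulators, while dividing cells switch on cyclins, kinases and spindle genes late in the cell cycle. In bulk tissue, fewer cells of a type and less RNA per cell cannot be told apart.

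The samples carried the markers of vein wall that their labels call for. MYH11, ACTA2, TAGLN and CNN1 for smooth muscle and PECAM1, CDH5, VWF and KDR for endothelium were well above background in 4 of 4 samples of both groups. MYH11 averaged 13.96 ± 1.03 in the downstream vein and 16.86 ± 0.71 in the control (SD). PECAM1 averaged 15.45 ± 0.36 in the downstream vein and 15.29 ± 0.38 in the control.

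In limma, 2742 of 33350 features (8.22%) passed an adjusted p of 0.05, of which 1070 were higher in the downstream vein (3.21%) and 1672 lower (5.01%). At least 2-fold differences made up 933 of these calls, 336 higher and 597 lower. Among the 5874 features with a gene symbol, 333 rose (5.67%) and 362 fell (6.16%), and the median difference was 0.02. The levels of the groups did not overlap for 618 of these (10.5%), with 326 higher (5.55%) and 292 lower (4.97%). Of the 695 called features with a symbol, 670 had 1 direction in 4 of 4 pairs. The calls rest on these same pairs, so this is no separate check. The probe letters below, the last 30 of the 60 bases of each probe, are those of 2 genes that kept their call without replicate 4 (TMSB10 and TFPI), of a gene with nearly equal differences in all pairs (TMEM158) and of 2 genes with large falls (SCARA5 and GSN). They show which stretch of transcript each level stands for. Capitals mark AATAAA on the strand printed, the hexamer that precedes the poly(A) tail of many transcripts, which 9.4% of all probes hold in these bases.
TMSB10: gatattatagaaaattatttgtatgattaa
TFPI: caaagcacccagcttctttgaattttacgg
TMEM158: gcgtttcttcttgtacttctgtggtttttt
SCARA5: agagaaaatttcAATAAAgctaaaaacatg
GSN: ctttgggaaattgaattcAATAAAagcttt

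The smallest adjusted p among the named genes belonged to a small actin-binding peptide and to an inhibitor of clotting. TMSB10, thymosin beta 10, which binds actin monomers, stood at 16.96, 17.68, 17.82 and 17.63 in the downstream veins of replicates 1 to 4, against 15.20, 16.04, 15.86 and 15.42 in the controls. Every downstream sample lay above every control, and the gene rose 3.72-fold (1.89 ± 0.13 on the log2 scale, SE, adjusted p = 2.11e-05). TFPI, the tissue factor pathway inhibitor that endothelium makes to hold coagulation in check, stood at 9.86, 10.67, 9.19 and 9.59 in the downstream veins, against 8.05, 7.95, 7.20 and 7.74 in the controls. Its groups did not overlap either, and it rose 4.27-fold (2.09 ± 0.18, adjusted p = 2.01e-04). These were the 2 features still called without replicate 4, and both passed without any 1 of the 4 replicates: without replicate 4 they stood at 1.79 (adjusted p = 0.0148) for TMSB10 and 2.17 (adjusted p = 0.0195) for TFPI. Over all alternatives the adjusted p ran from 1.17e-06 to 0.637 for TMSB10 and from 1.01e-05 to 0.637 for TFPI, with 0.637 from replicates 1 and 2 alone.

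TMEM158, a membrane protein first described as a target of Ras signalling, differed by 2.71, 2.64, 2.87 and 2.81 in the pairs of replicates 1 to 4. Its levels were 12.95, 12.48, 11.25 and 11.37 in the downstream veins, against 10.24, 9.84, 8.38 and 8.56 in the controls. Replicates 1 and 2 were high at both sites, yet the groups did not overlap (2.75 ± 0.31, adjusted p = 0.00163). PLAU, the urokinase that activates plasmin, stood at 15.08, 15.90, 15.43 and 15.17 in the downstream veins, against 13.10, 12.21, 13.12 and 13.52 in the controls. It was higher in 4 of 4 pairs with no overlap (2.41 ± 0.44, adjusted p = 0.00912). TAC1, the precursor of substance P, rose by 2.19 ± 0.62 with pair differences of 1.79 to 2.51 (adjusted p = 0.0448). CAPN6, a calpain that lacks protease activity and binds microtubules, rose by 3.45 ± 0.76, with 0.67 in replicate 1 and 2.74 to 5.39 in the others. SULT1A3, a sulphotransferase of catecholamines in human, rose by 2.72 ± 0.63. PHACTR3, an actin and phosphatase regulator, rose by 2.21 ± 0.64, with 0.04 in replicate 1, and was well above background in 3 of 4 controls (adjusted p from 0.0175 to 0.0486 over these 3).

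**Figure D1:**
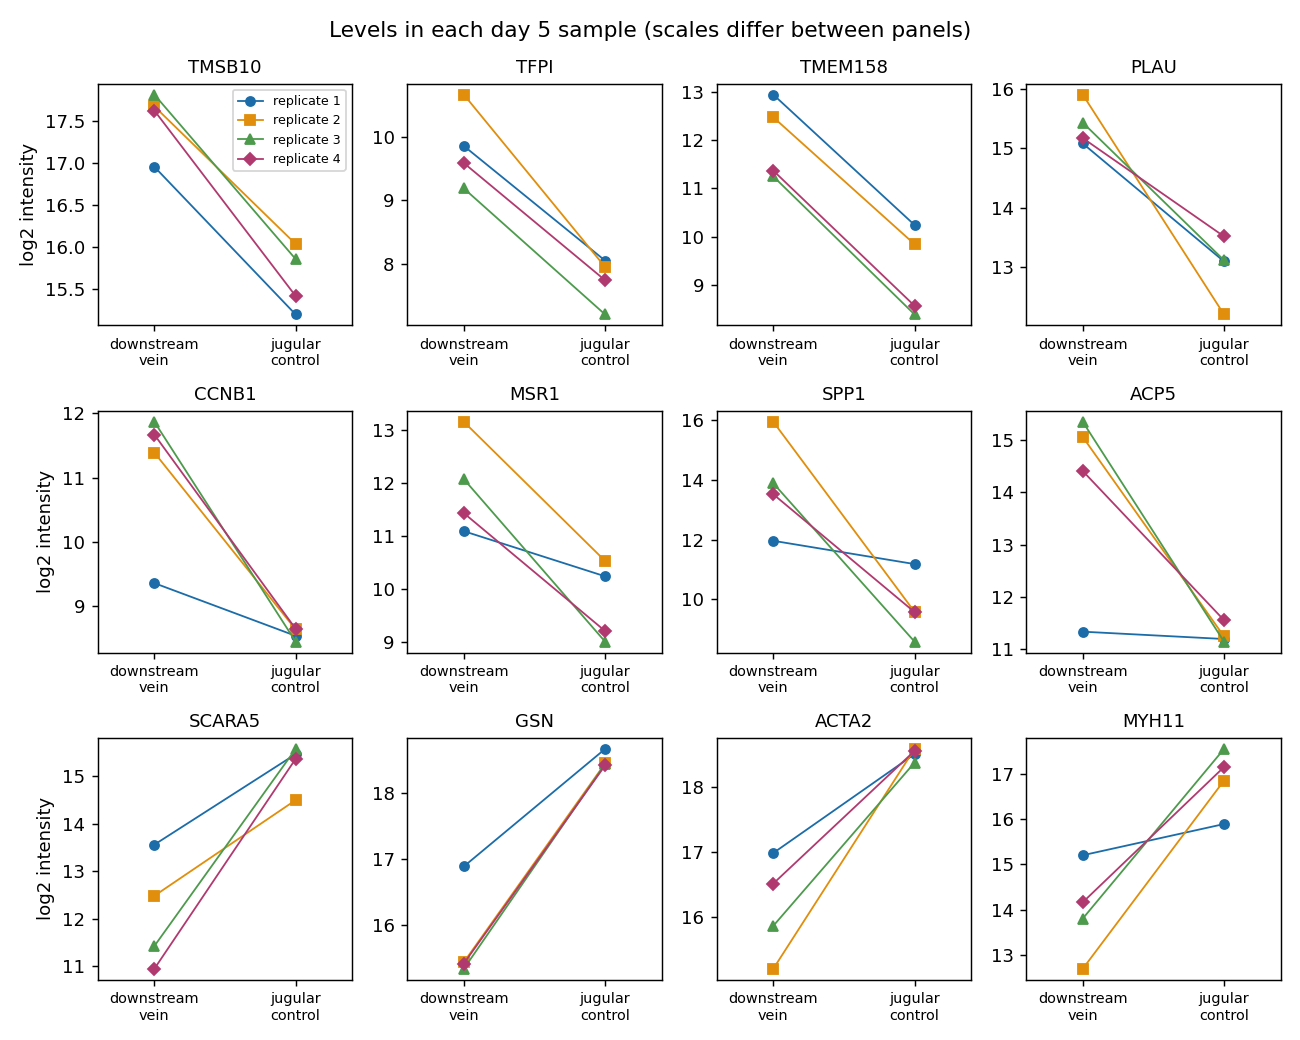
Normalised log2 intensity of 12 genes in each day 5 sample, downstream vein on the left and jugular control on the right of each panel, with a line per replicate number. The 4 lines of TMSB10, TFPI and TMEM158 run nearly parallel, whereas the replicate 1 line of SPP1 and ACP5 is nearly flat (differences of 0.79 and 0.14).

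Replicate 1 differed least between the sites. Over the 5874 features with a symbol the median size of the pair difference was 0.19 in replicate 1 and 0.33, 0.33 and 0.31 in replicates 2 to 4. In replicate 1, 170 of them differed by 2-fold or more, against 805, 770 and 688 in the others. Replicate 1 held the smallest of the pair differences for 538 of the 695 called features, a share not counted over all features with a symbol. Without replicate 1 the count of calls was 4437. What set replicate 1 apart was not tested.

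Genes of cell division were higher in the downstream vein. Of 30 mitosis genes measured, 18 rose (60%, against 5.67% of all features with a symbol) and 0 fell, and their median difference was 1.49 against 0.02 for all features with a symbol. Their mean level was 9.17, 10.37, 10.34 and 10.26 in the downstream veins, against 8.91, 8.75, 8.47 and 8.55 in the controls. All downstream samples lay above all controls, with replicate 1 lowest among them, and the pair medians were 0.35, 1.75, 1.96 and 1.87. CCNB1, the cyclin of entry into mitosis, stood at 9.36, 11.39, 11.87 and 11.67 in the downstream veins, against 8.54, 8.64, 8.45 and 8.65 in the controls. The controls lay within a narrow range and the groups did not overlap (2.50 ± 0.56, adjusted p = 0.0185). CDK1, the kinase that CCNB1 activates, rose by 2.31 ± 0.49 (adjusted p = 0.0155), and DLGAP5, a spindle assembly protein, by 2.36 ± 0.49 (adjusted p = 0.0141).

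The cell cycle transcription factor MYBL2 rose by 2.26 ± 0.53, BIRC5 (survivin, of the chromosomal passenger complex) by 2.21 ± 0.56 and TOP2A, which untangles DNA before chromosomes part, by 2.06 ± 0.45 (adjusted p from 0.0174 to 0.0285). HMMR, a hyaluronan receptor also found on the spindle, rose by 1.33 ± 0.25, and the kinase MELK by 1.52 ± 0.34. The proliferation antigen MKI67 was an exception at 0.17 ± 0.17 (adjusted p = 0.575). Its probe gave 10.04, 9.34, 8.25 and 9.41 in the downstream veins, against 10.17, 9.11, 7.90 and 9.17 in the controls, with full overlap. Of 17 DNA replication genes 2 rose and 0 fell, with a median of 0.46, and their share of calls (11.8%) was that of all features with a symbol. RRM2, the ribonucleotide reductase subunit that supplies nucleotides, rose by 2.05 ± 0.53 and E2F1 by 0.35 ± 0.10, while the polymerase clamp PCNA stood at 0.36 ± 0.26 (adjusted p = 0.415). Without replicate 4 the medians were 1.37 for mitosis and 0.41 for DNA replication, and 0 members of either list were called.

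Genes of the contractile apparatus were lower. Of 26 measured, 10 fell (38.5%, against 6.16% of all features with a symbol) and 0 rose, with a median of -1.57, or -1.64 without replicate 4. Their mean level was 13.12, 11.56, 12.30 and 12.50 in the downstream veins, against 13.62, 13.88, 14.36 and 13.83 in the controls. The groups did not overlap, and replicate 2 was the lowest downstream sample. ACTA2, smooth muscle actin, stood at 16.99, 15.21, 15.87 and 16.52 in the downstream veins, against 18.51, 18.59, 18.38 and 18.56 in the controls. All downstream samples lay below all controls, whose range was narrow (-2.36 ± 0.65, adjusted p = 0.0394). MYH11, the myosin heavy chain of smooth muscle, stood at 15.20, 12.69, 13.80 and 14.16 in the downstream veins, against 15.89, 16.85, 17.55 and 17.15 in the controls. Replicate 1 had the highest downstream and the lowest control level, with no overlap (-2.89 ± 0.75, adjusted p = 0.0322).

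Phospholamban (PLN), the brake on the calcium pump, fell by 2.92 ± 0.66 on the log2 scale (adjusted p = 0.0197). CNN1, calponin, fell by 2.52 ± 0.72, the actin-binding CALD1 by 2.27 ± 0.54 and the LIM protein FHL1 by 2.09 ± 0.38 (adjusted p from 0.00885 to 0.045). CNN1 overlapped, since its downstream level in replicate 1 (16.99) exceeded the control of replicate 4 (16.71). SRF, the transcription factor that binds the promoters of many contractile genes, fell by 1.34 ± 0.26 (adjusted p = 0.0104). LDB3 at Z-discs (-1.87 ± 0.42) and PPP1R14A, an inhibitor of myosin phosphatase (-1.59 ± 0.41), also fell. TAGLN, an actin-bundling protein, stood at -1.45 ± 0.51 and did not pass (adjusted p = 0.0913). Among 15 genes of ion channels and calcium handling 2 fell and 0 rose, with a median of -0.43 and a share of calls (13.3%) close to the 11.8% of all features with a symbol.

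KCNAB1, a subunit of voltage-gated potassium channels, had the largest fall of any named gene. It stood at 12.54, 8.78, 8.81 and 9.41 in the downstream veins, against 13.57, 14.49, 13.70 and 12.54 in the controls. Replicate 1 stood far above the other downstream samples and close to the control of replicate 4 (-3.69 ± 0.86, adjusted p = 0.0215). RYR2, a calcium release channel, fell by 2.39 ± 0.58, while the potassium channel gene KCNJ8 stood at 0.18 ± 0.27 (adjusted p = 0.729).

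Further genes among the 15 largest falls had other roles. CAP2, an actin regulator, fell (-2.99 ± 0.72), as did KANK1 (-2.63 ± 0.56), the alpha catenin CTNNA2 (-2.73 ± 0.61) and PRKAA2, a catalytic subunit of the energy sensor AMPK (-2.78 ± 0.47). EFHD1, a mitochondrial calcium-binding protein, fell by 2.46 ± 0.46 (adjusted p from 0.00681 to 0.0245 over these 5).

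Not all genes of the mural wall followed the contractile list. Of 18 pericyte and mural regulators, 4 rose (22.2%, against 5.67% of all features with a symbol) and 0 fell, with a median of 0.04. RGS5, a pericyte marker that damps G protein signals, stood at 12.20, 13.81, 12.74 and 12.62 in the downstream veins, against 10.74, 11.26, 10.97 and 10.79 in the controls. It was higher in 4 of 4 pairs with no overlap (1.90 ± 0.51, adjusted p = 0.0363). RGS2 rose by 1.45 ± 0.23 and EDNRB, an endothelin receptor, by 0.97 ± 0.26, which was well above background in 3 of 4 controls.

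**Figure D2:**
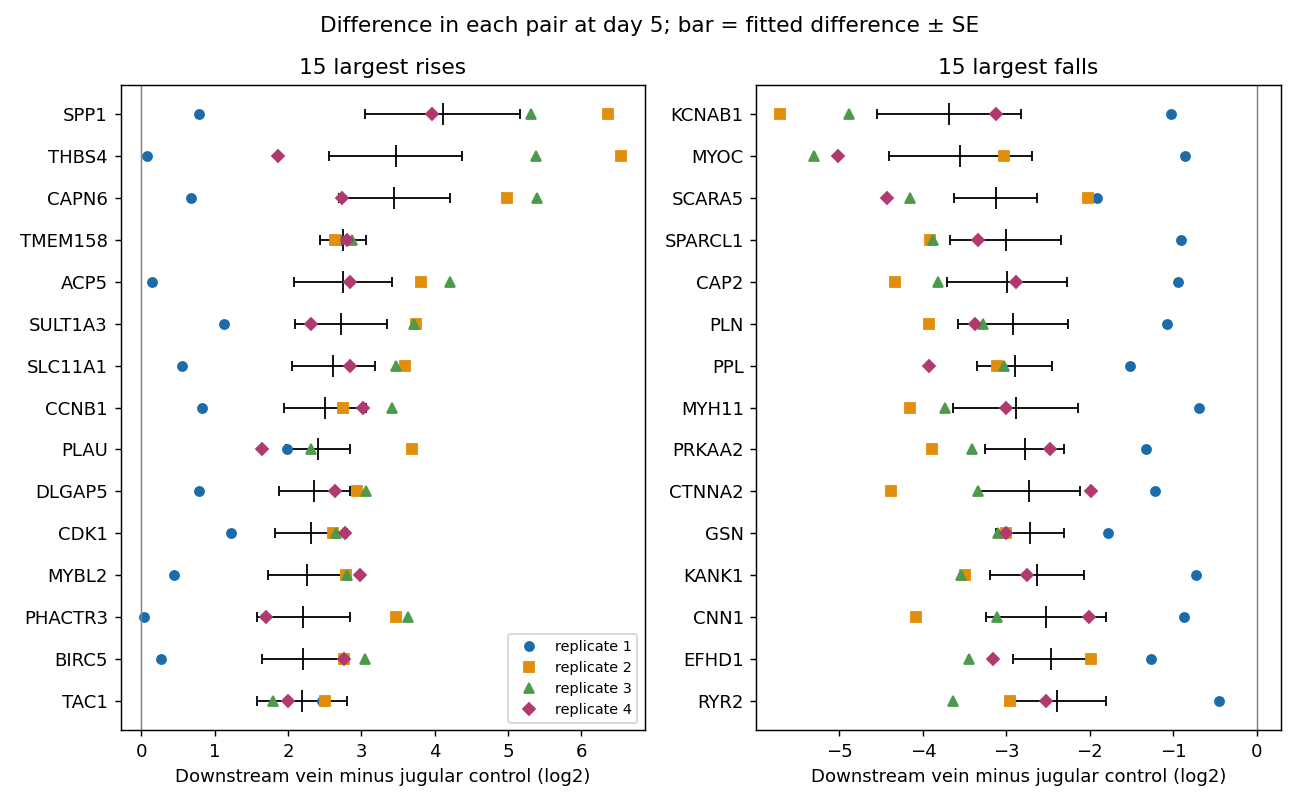
Downstream vein minus jugular control in each of the 4 pairs (log2, coloured markers) and the fitted difference ± SE (black) for the 15 largest rises on the left and the 15 largest falls on the right. In most rows the replicate 1 marker lies nearest to 0, while the 4 markers of TMEM158 lie between 2.64 and 2.87.

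Genes of resting fibroblasts in the outer vein wall fell as well, with 47.8% called against 11.8% of all features with a symbol. Of 23 measured, 10 fell and 1 rose, and the list had a median of -1.48 (-1.08 without replicate 4). Their mean level was 12.57, 11.85, 11.55 and 11.50 in the downstream veins, against 13.14, 12.69, 13.07 and 13.31 in the controls. SCARA5, a ferritin receptor of such fibroblasts, stood at 13.56, 12.48, 11.42 and 10.94 in the downstream veins, against 15.47, 14.50, 15.58 and 15.37 in the controls. Its groups did not overlap (-3.13 ± 0.50, adjusted p = 0.00582). GSN, the actin-severing gelsolin, stood at 16.88, 15.43, 15.33 and 15.41 in the downstream veins, against 18.66, 18.44, 18.43 and 18.41 in the controls. Replicate 1 was highest at both sites, and no downstream sample reached a control (-2.72 ± 0.41, adjusted p = 0.00447).

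Myocilin (MYOC) stood at 10.71, 7.40, 6.97 and 7.65 in the downstream veins, against 11.57, 10.43, 12.27 and 12.66 in the controls. The groups overlapped, since the downstream vein of replicate 1 lay above the control of replicate 2 (-3.55 ± 0.86, adjusted p = 0.0252). SPARCL1, a matricellular relative of SPARC, fell (-3.01 ± 0.67), as did the cytoskeletal linker PPL (-2.90 ± 0.45), the complement protease CFD (-2.03 ± 0.39) and the microfibril protein MFAP5 (-1.80 ± 0.42) (adjusted p from 0.00519 to 0.0209). CLU, the secreted chaperone clusterin, was the member that rose (1.87 ± 0.49, adjusted p = 0.0324). Its replicate 1 difference was -0.13 and those of replicates 2 to 4 were 2.12, 3.14 and 2.33. Decorin (DCN) stood at -0.62 ± 0.44 (adjusted p = 0.405), but at 0.54 with median centring.

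Few collagen genes were called. Of 18 collagen chains 1 fell and 0 rose, with a median of 0.07. Their share of calls was 5.6%, against 11.8% of all features with a symbol. COL1A1, the main chain of scar collagen, averaged 12.67 ± 0.37 in the downstream vein and 12.66 ± 0.20 in the control (SD), a difference of 0.00 ± 0.36 (SE). COL3A1 stood at -0.32 ± 0.18 and COL5A2 at -0.13 ± 0.34, but at 0.13 and 0.60 with median centring. COL21A1, a chain that associates with fibrils, was the member that fell (-2.24 ± 0.47, adjusted p = 0.015). COL11A1 was well above background in 3 of 4 downstream veins and 0 of 4 controls, and did not pass (adjusted p = 0.289), with pair differences of -0.54, 1.62, 1.72 and 0.59.

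Secreted matricellular proteins held the 2 largest rises among the named genes, and 2 of 17 rose (11.8%, as among all features with a symbol) and 0 fell, with a median of 0.82, which was 0.34 without replicate 2. SPP1, osteopontin, a secreted adhesion protein of macrophages and synthetic smooth muscle, stood at 11.96, 15.95, 13.89 and 13.52 in the downstream veins, against 11.18, 9.58, 8.58 and 9.57 in the controls. The groups did not overlap, but replicate 1 differed by 0.79 and replicate 2 by 6.37 (4.11 ± 1.06, adjusted p = 0.0311). THBS4, a thrombospondin, stood at 11.16, 14.78, 14.84 and 13.07 in the downstream veins, against 11.09, 8.24, 9.46 and 11.21 in the controls. Replicate 1 hardly differed and the groups overlapped (3.47 ± 0.91, adjusted p = 0.0339). Bone sialoprotein (IBSP) stood at 8.30, 8.72, 10.16 and 12.94 in the downstream veins, against 7.26, 7.08, 6.08 and 6.75 in the controls, which were well above background in 2 of 4 samples. Its levels did not overlap, yet it did not pass (3.24 ± 1.07, adjusted p = 0.0737), nor did periostin (POSTN, 1.17 ± 0.48, adjusted p = 0.146). PLOD2, which hydroxylates collagen lysines for crosslinks, rose by 1.15 ± 0.26, and PCOLCE2, an enhancer of procollagen cleavage, fell by 1.90 ± 0.42, in a list of 8 folding and crosslinking genes with 1 rise and 1 fall.

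Proteases of matrix and lysosome rose in 6 of 28 cases (21.4%, against 5.67% of all features with a symbol) and fell in 0, with a median of 0.49. Apart from PLAU these were the cathepsins CTSC (2.02 ± 0.54), CTSS (1.30 ± 0.35), CTSD (1.29 ± 0.30) and CTSB (1.13 ± 0.21) and the protease inhibitor SERPINE2 (1.69 ± 0.38), with adjusted p from 0.00987 to 0.0369 over these 5. The gelatinase MMP2 stood at 0.24 ± 0.34 and the inhibitor TIMP1 at 1.37 ± 0.54 (adjusted p = 0.128).

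Macrophage genes rose in 8 of 31 cases (25.8%, against 5.67% of all features with a symbol) and fell in 0. The list had a median of 0.88, or 0.87 without replicate 4. Their mean level was 10.21, 10.80, 10.79 and 10.63 in the downstream veins, against 9.95, 9.59, 9.70 and 9.80 in the controls, with no overlap. MSR1, the scavenger receptor that takes up modified lipoproteins, stood at 11.09, 13.15, 12.07 and 11.43 in the downstream veins, against 10.24, 10.53, 9.01 and 9.21 in the controls. It was higher in 4 of 4 pairs with no overlap (2.19 ± 0.39, adjusted p = 0.00835). SLC11A1, the metal transporter of phagosomes, rose by 2.62 ± 0.57, the fractalkine receptor CX3CR1 by 2.04 ± 0.40, the costimulatory ligand CD86 by 1.50 ± 0.34 and the haemoglobin scavenger receptor CD163 by 1.19 ± 0.28 (adjusted p from 0.0117 to 0.0227). CD14, the endotoxin coreceptor of monocytes, stood at 0.23 ± 0.40 (adjusted p = 0.772). ACP5, the acid phosphatase of osteoclasts and activated macrophages, stood at 11.34, 15.06, 15.35 and 14.41 in the downstream veins, against 11.20, 11.25, 11.15 and 11.56 in the controls. Replicate 1 sat within the control range and the other downstream samples far above it (2.75 ± 0.67, adjusted p = 0.0258).

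Lists of other leukocytes were short or gave 0 calls. T and NK cell genes had 0 calls in either direction among 21 (median 0.15). CD3E, of the T cell receptor complex, averaged 7.37 ± 0.33 in the downstream vein and 7.38 ± 0.16 in the control (SD), and the pan-leukocyte gene PTPRC differed by 0.43 ± 0.20 (adjusted p = 0.194). Of 7 neutrophil genes 2 fell (28.6%, against 6.16% of all features with a symbol) and 0 rose. The falls were the chemokine receptor CXCR2 (-1.09 ± 0.30) and the peptidoglycan-binding PGLYRP1 (-0.68 ± 0.13). Of 5 B and plasma cell genes 1 fell and 0 rose, the fall being XBP1, which other secretory cells also express. Among 31 cytokines and chemokines and 26 interferon-induced genes 0 passed, at medians of 0.35 and 0.13. The interleukin IL6 stood at 0.31 ± 0.75 and the chemokine CCL2 at -0.34 ± 0.68, with the control of replicate 4 (16.45 for IL6 and 15.63 for CCL2) above its downstream partner (14.68 for IL6 and 13.46 for CCL2). CXCL14 stood at 2.39 ± 0.77 and did not pass (adjusted p = 0.0688).

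Complement genes rose in 5 of 24 cases and fell in 1 (median 0.42), a share of calls of 25% against 11.8% of all features with a symbol. C6, a component of the membrane attack complex, rose by 1.20 ± 0.19 (adjusted p = 0.00519), though well above background in 2 of 4 controls, the inhibitor CFI by 1.13 ± 0.25 and the protease C1S by 1.01 ± 0.28. C3 stood at 1.03 ± 0.62 (adjusted p = 0.321). Among 20 coagulation and fibrinolysis genes 3 rose and 1 fell (median 0.12), a share of calls of 20% against 11.8% of all features with a symbol. TFPI and PLAU were among the rises, and prothrombin (F2, -1.49 ± 0.27) was the fall. Tissue factor (F3), the trigger of clotting that TFPI inhibits, stood at -1.57 ± 0.61 and did not pass (adjusted p = 0.122).

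Endothelial genes rose in 6 of 17 cases (35.3%, against 5.67% of all features with a symbol) and fell in 0. The list had a median of 0.53 (0.36 without replicate 4). ANGPT2, a ligand of the TIE2 receptor that endothelium releases on activation, stood at 11.98, 10.97, 10.63 and 11.22 in the downstream veins, against 9.62, 10.11, 9.29 and 9.11 in the controls. The groups did not overlap (1.67 ± 0.24, adjusted p = 0.00411). KDR, the main VEGF receptor, stood at 9.62, 10.92, 10.91 and 10.98 in the downstream veins, against 9.02, 8.56, 8.94 and 9.10 in the controls. It was higher in 4 of 4 pairs (1.70 ± 0.33, adjusted p = 0.0107). The adhesion molecules CDH5 (1.17 ± 0.29) and ICAM2 (1.34 ± 0.26), the transcription factor SOX18 (0.74 ± 0.20) and the coreceptor ENG (0.52 ± 0.15) rose too. PECAM1 (0.15 ± 0.26) and von Willebrand factor (VWF, 0.13 ± 0.29) did not pass.

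Among 24 genes on which blood flow acts in endothelium 2 fell and 0 rose, a share of 8.3% against 11.8% of all features with a symbol. Their median was -0.17, but -0.01 without replicate 4 and 0.53 with median centring. The caveolar protein CAV1 fell by 0.88 ± 0.20 (but 0.21 with median centring) and the immediate early factor EGR1 by 1.58 ± 0.45. The nitric oxide synthase NOS3 stood at 13.73, 11.96, 13.03 and 13.36 in the downstream veins, against 12.53, 14.53, 13.40 and 12.43 in the controls. Replicates 1 and 4 were higher downstream and replicates 2 and 3 lower (-0.20 ± 0.48, adjusted p = 0.838, but 0.56 with median centring). SOX9, a transcription factor known from cartilage, was not well above background in 4 of 4 controls but was in 4 of 4 downstream veins. Its signal was 1.78-fold higher downstream (adjusted p = 0.00963). This is the plain difference of means and not a lower limit. The control probe's own signal lay above the lowest signal counted as well above background, and dye bias can enter the difference.

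Growth factors and their receptors moved both ways, with 3 rises and 2 falls among 29 (median 0.00). Their share of calls was 17.2%, against 11.8% of all features with a symbol. Within the insulin-like growth factor family, IGF1 stood at 9.70, 10.62, 10.85 and 10.81 in the downstream veins, against 9.15, 8.86, 8.65 and 9.01 in the controls. IGF2 stood at 13.65, 12.22, 14.66 and 14.30 in the downstream veins, against 14.52, 14.43, 16.68 and 16.37 in the controls. IGF1 rose without overlap (1.58 ± 0.31, adjusted p = 0.0115), and IGF2 fell in 4 of 4 pairs with overlap (-1.79 ± 0.37, adjusted p = 0.0142). The binding protein IGFBP4 rose by 1.45 ± 0.24 and the EGF receptor ligand AREG by 1.61 ± 0.47, and the neurotrophin receptor NTRK2 fell by 2.28 ± 0.61. Of 29 TGF-beta and BMP genes 2 rose (6.9%, close to the 5.67% of all features with a symbol) and 0 fell, TGFBR1 (0.55 ± 0.15) among them, and the ligand TGFB1 stood at 0.56 ± 0.24 (adjusted p = 0.166). Of 16 Wnt genes 1 rose and 1 fell, the fall being the antagonist DKK2 (-2.08 ± 0.55).

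Ribosomal proteins and translation factors gave many small calls, 17 higher and 1 lower among 32, with a median of 0.38. Their share of calls was 56.2%, against 11.8% of all features with a symbol. RPSA (1.18 ± 0.16), RPS18 (0.85 ± 0.10), EEF1G (0.83 ± 0.11) and RPL10A (0.65 ± 0.08) rose, and RPLP0 stood at 0.10 ± 0.09. With median centring in place of loess the median of the list was 1.56 and that of all features with a symbol 0.39. The reference genes ACTB (0.80 ± 0.23), HPRT1 (1.09 ± 0.26) and RPL4 (0.35 ± 0.09) passed as higher, PPIA (0.08 ± 0.15) did not, and YWHAZ stood at -0.24 ± 0.12 but at 0.52 with median centring. Median centring moved the median of all 33350 features to 0.112, against 0.006, and made 83.1% of its calls higher, against 39.0%. Under it the medians were 1.91 for mitosis, 1.33 for macrophages, -0.74 for contractile genes and -0.66 for resting fibroblasts.

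Energy genes changed little as lists. Of 24 genes of mitochondrial respiration 4 fell (16.7%, against 6.16% of all features with a symbol) and 0 rose. The list had a median of -0.09, but 0.64 with median centring. Among the falls were PPARGC1A, the coactivator of mitochondrial biogenesis (-1.13 ± 0.31), and NDUFA4 of the respiratory chain (-0.83 ± 0.16, but 0.08 with median centring). Of 20 hypoxia and glycolysis genes 1 fell, the kinase PDK4, which holds pyruvate back from the mitochondria (-2.29 ± 0.62, adjusted p = 0.0366). Among 17 genes of folding in the endoplasmic reticulum 1 rose (SSR1, 1.18 ± 0.31) and 1 fell (XBP1, -0.69 ± 0.18, but 0.37 with median centring). Among 15 heat shock and metallothionein genes 2 fell and 0 rose, a share of calls of 13.3% against 11.8% of all features with a symbol. Their median was -0.68, but 0.26 with median centring. The pair medians were -0.86, -1.15, 0.11 and -0.16 in replicates 1 to 4.

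**Figure D3:**
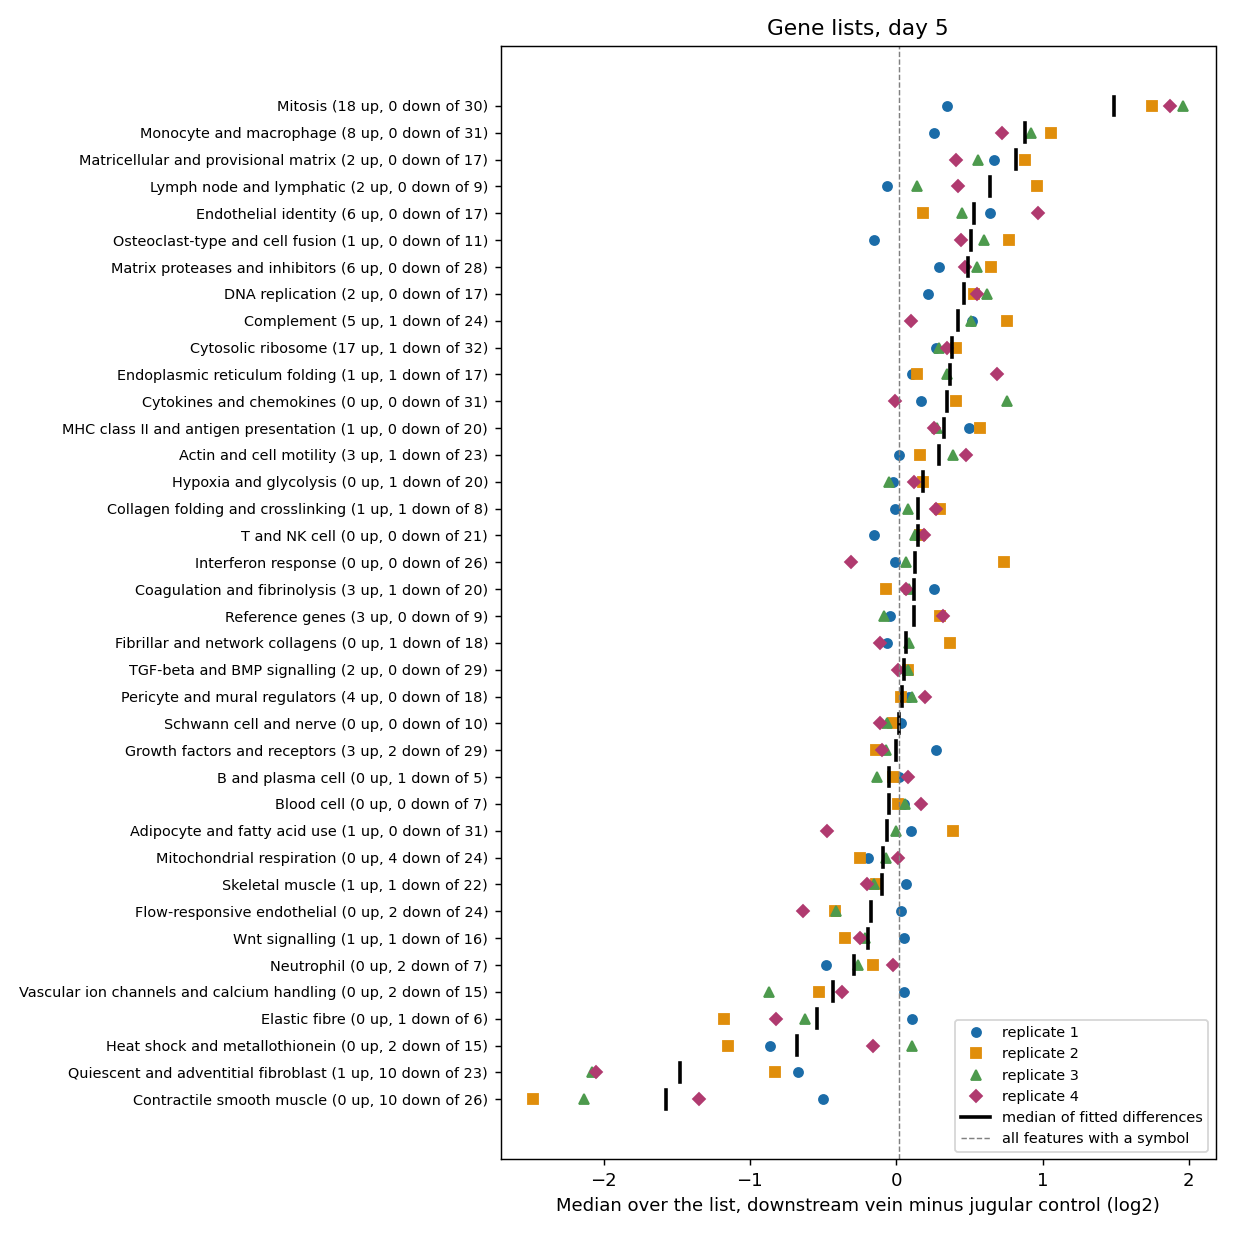
Median difference between downstream vein and jugular control (log2) over the members of each of 38 gene lists, in each pair (coloured markers) and as fitted (black bar), with the members called higher and lower in brackets. Mitosis lies furthest right at 1.49 and contractile smooth muscle furthest left at -1.57, and the dashed line marks 0.02, the median of all features with a symbol.

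Fat, muscle, nerve, blood and lymphatic markers were also measured. Of 31 adipocyte and fatty acid genes 1 rose and 0 fell, and their mean level ran from 9.74 to 10.76 in the downstream veins and from 9.95 to 10.65 in the controls. The fat cell hormone ADIPOQ stood at 10.28, 12.84, 11.68 and 6.68 in the downstream veins, against 10.86, 9.81, 12.44 and 13.55 in the controls, so that replicate 4 had the lowest downstream and the highest control level. Of 22 skeletal muscle genes 1 rose and 1 fell (mean level 7.20 to 7.58 in the downstream veins and 7.52 to 7.80 in the controls). For 10 nerve genes (8.15 to 8.50 in the downstream veins and 8.52 to 8.78 in the controls, without overlap) and 7 blood cell genes (7.10 to 7.65 in the downstream veins and 7.08 to 7.78 in the controls) there were 0 calls. Although its means lay apart, the nerve list had a median difference of 0.02. Its pair medians were 0.03, -0.02, -0.06 and -0.11 in replicates 1 to 4. Lymph node and lymphatic genes rose in 2 of 9 cases (22.2%, against 5.67% of all features with a symbol). Their mean level was 8.43 to 9.37 in the downstream veins and 7.98 to 8.35 in the controls, also without overlap. The part of these tissues in the results above was not tested.

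Against the anastomosis of the same day, which was also labelled with Cy5, the downstream vein gave 0 calls in limma (0%), while 3331 of 33350 features had an unadjusted p under 0.05. SCARA5 was the key gene with the smallest p. It averaged 12.10 ± 1.17 in the downstream vein and 9.39 ± 0.59 at the anastomosis, and 15.23 ± 0.49 in the jugular control (SD). Its downstream minus anastomosis difference was 2.71 ± 0.50 (SE, unadjusted p = 8.71e-05, adjusted p = 0.424). PROX1, the lymphatic transcription factor, averaged 7.93 ± 0.41 downstream and 6.63 ± 0.22 at the anastomosis (1.30 ± 0.24, adjusted p = 0.424). NTRK2 differed by 2.43 ± 0.61 and PPL by 1.56 ± 0.45, and likewise did not pass. CCNB1 averaged 11.07 ± 1.16 downstream and 12.20 ± 0.11 at the anastomosis (-1.13 ± 0.56, adjusted p = 0.517), and the mitosis list had a median of -0.88. TFPI lay at 0.02 ± 0.18 and ACTA2 at -0.16 ± 0.65 between these sites.

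**Figure D4:**
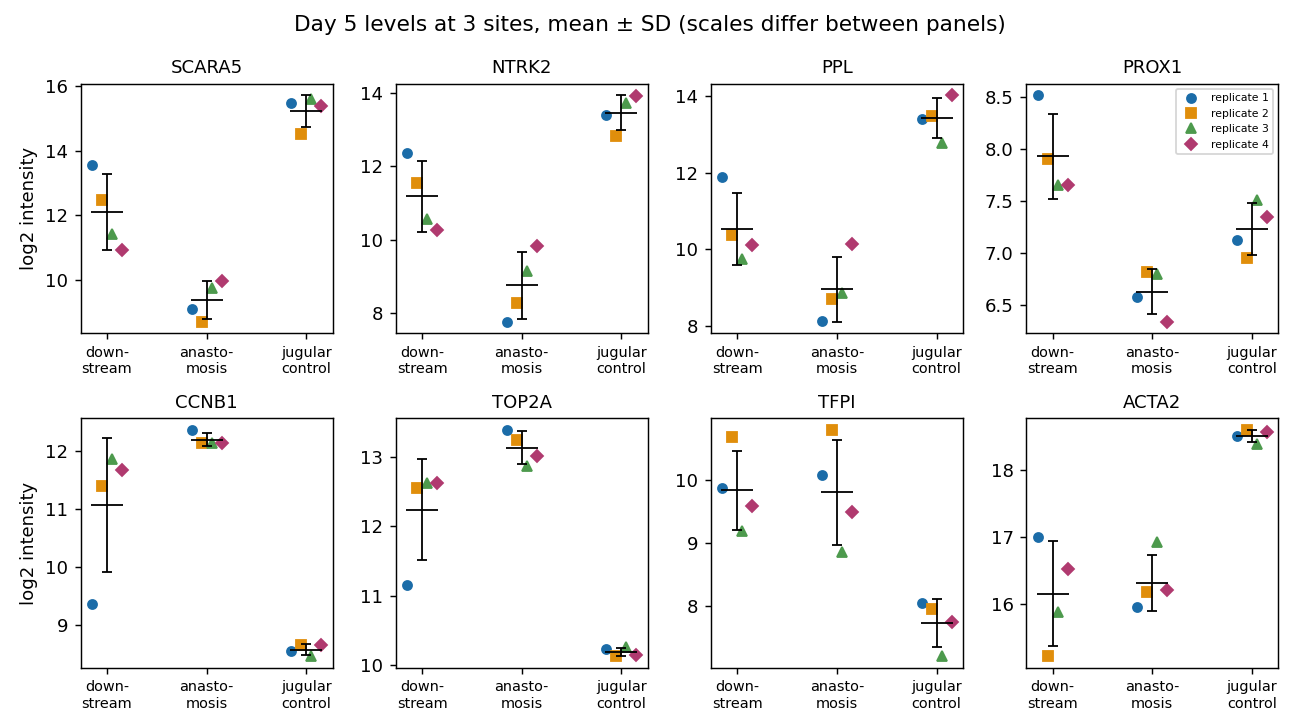
Normalised log2 intensity of 8 genes at day 5 in the downstream vein, the anastomosis and the jugular control, with a marker per replicate and the mean ± SD in black. The downstream means of SCARA5, NTRK2 and PPL lie between those of the other sites, with overlap for PPL (9.74 and 10.10 in downstream replicates 3 and 4, against 10.14 in anastomosis replicate 4), and CCNB1 spans 9.36 to 11.87 downstream but a narrow range elsewhere.

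The change of the downstream minus control difference between day 5 and day 14, from which any effect of the dyes common to both days drops out, also gave 0 calls (0%), with 2508 features at an unadjusted p under 0.05. Mitosis genes had a median change of 1.53 (day 5 minus day 14). HMMR averaged 10.23 ± 0.42 downstream and 8.90 ± 0.27 in the control at day 5, and 9.37 ± 0.36 downstream and 9.48 ± 0.53 in the control at day 14 (SD). Its difference was 1.44 ± 0.35 larger at day 5 (SE, unadjusted p = 9.67e-04, adjusted p = 0.657), and that of TOP2A was 2.14 ± 0.64 larger (adjusted p = 0.657), and neither passed. TFPI had a change of 0.47 ± 0.26 (adjusted p = 0.69) and RPS18 one of 0.03 ± 0.15 (adjusted p = 0.973). The contractile list had a median change of -0.69 and the resting fibroblast list one of -1.09.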

How the data were processed

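Total RNA (RNeasy Micro) was labelled with the 2-colour Quick Amp method and hybridised to Agilent pig arrays, per the labels' protocols. The authors deposited scanner files quantified with Feature Extraction 10.5.1.1, which hold the intensity of each spot, per the file headers. They also deposited a table of log2 values whose normalisation, centring and direction are not given in the sources used here, used only as an alternative.

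Mean intensities were background-corrected (normexp, offset 50), normalised by loess within and by Aquantile between arrays with limma 3.58.1 in R 4.3.3, and spots of a probe averaged. The test took in 33350 features, each reaching well above background in 4 or more samples, with the brightest probe per gene symbol. Symbols came from the files and from RefSeq gene tables, for 9197 of 43603 probes. All 24 samples were fitted together with the replicate number as a block, and p-values were adjusted over all features by Benjamini-Hochberg. The pairing was checked: deviations of same-numbered samples correlated at 0.57, 0.61, 0.69 and 0.76 for replicates 1 to 4 of day 5. Same-numbered samples of day 5 also shared a scan, so a shared animal and a shared scan cannot be told apart here. Tested on simulated data for the downstream and control comparison over 33350 features, the fit recovered 64% of changes of log2 size 1 and 97% of size 2, with 12 false calls in all. The simulated noise was independent between features and samples, and each change was equal in all 4 downstream samples. The real pairs differed in size, so these rates need not hold for them. The precision is limited by the number of arrays.

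The genes and 38 gene lists were chosen with earlier results of these data known. Named genes are the 15 largest rises and falls among called genes with 4 of 4 pairs in the same direction, key genes and up to 6 called members of each list, exceptions to a list, and genes above background in 1 group only. Alternatives covered background correction, normalisation, filters, the block, the samples fitted, the variance model, the probe chosen, left-out replicates, scanner protocol and the deposited table.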

Additional observations from a re-analysis of the deposited data

Results flagged for a closer look

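Over 22 genes and 38 lists in both groups, 120 combinations in all, the highest or lowest of 4 samples was tested for a gap to the others. Chance produces such a gap in about 1 of 20 groups. All 8 values that stood apart were from replicate 1. They were measured in the same samples and are not independent of each other. In the downstream vein CDK1 stood at 10.26, against 11.47 to 11.65 in the other replicates, KCNAB1 at 12.54, against 8.78 to 9.41, and GSN at 16.88, against 15.33 to 15.43. In the jugular control GSN stood at 18.66, against 18.41 to 18.44. Among list mean levels in the downstream vein of replicate 1, mitosis stood at 9.17 (others 10.26 to 10.37) and collagen folding and crosslinking at 11.69 (others 12.05 to 12.08). Flow-responsive endothelial genes stood at 13.54 (others 12.45 to 12.54) and coagulation and fibrinolysis at 10.61 (others 9.94 to 10.04).

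The arrays of the downstream vein also carry a green channel that the labels do not describe and that no comparison used as a sample. Loess within arrays and Aquantile between them took in both channels. The downstream levels of the main fit therefore depend on this green channel too. It held signal well above background for 62.3%, 56.6%, 77.7% and 76.8% of probes in replicates 1 to 4. Its levels correlated best with the day 5 jugular control of the same number, at 0.84, 0.84, 0.84 and 0.93, while the next best sample reached 0.68, 0.49, 0.75 and 0.68. What was hybridised there cannot be told from the labels.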

How the results depend on the processing

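The count of 2742 calls between downstream vein and jugular control became 8611 with median centring in place of loess, 6606 with the deposited value table, 1239 with that table without replicate 4 (an alternative chosen after seeing the data), 933 with a 2-fold minimum and 0 with replicates 1 and 2 alone (2514 features at an unadjusted p under 0.05 in limma). Leaving out 1 replicate gave 2 to 4437 calls, the lowest without replicate 4. Without the replicate block, which the pairing check bears on, 328 features were called. The gene lists held 125 called members, and this number became 306, 224, 48 and 0 under median centring, the value table, that table without replicate 4 and replicates 1 and 2 alone, 36 with no replicate block, and 2 to 165 with 1 replicate left out. Between downstream vein and anastomosis the count of 0 became 1 without replicate 4 and 1 with the value table without replicate 4, and the leave-one-out range was 0 to 1. Median centring turned the sign of CAV1 (0.21), YWHAZ (0.52), NDUFA4 (0.08) and XBP1 (0.37), and of named genes that did not pass in either fit: DCN (0.54), COL3A1 (0.13), COL5A2 (0.60), NOS3 (0.56), CD3E (0.18), CCL2 (0.54) and PPBP (0.18). Of 97 called named genes, 57 lost their call without the block and 95 without replicate 4. With equal groups and no missing spots the block leaves the differences as they are, so signs could not turn without it. Without replicate 4, 0 of these 97 turned sign, in a fit that shares the other replicates. The cause of these changes was not tested beyond the smaller number of samples. For probes not well above background in 1 group, such as that of SOX9, the difference rests on a dim signal.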
